A study of Rattus norvegicus with 6 samples.

Results

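The complement and coagulation proteins described here are 39 genes, 18 of complement and 21 of coagulation and fibrinolysis, among the 16209 genes of a rat liver RNA sequencing table. They were taken by gene symbol from a fixed list, and all 39 were found and passed the filter on low values. The samples were 6 liver tissue samples of rats with liver fibrosis: 3 replicates came from vehicle treatment and 3 from treatment with the plant biflavone ginkgetin (10 mg/kg/day). Both groups carried the fibrosis. Each sample is called a liver below for short, although the labels do not say whether replicates are separate animals. The sources used here give no strain, sex or age of the animals, no length of treatment and no cause of the fibrosis. The vehicle columns of the table are named with the letters TAA, which the labels do not explain. They were taken as the vehicle group because the series has no other, and every direction below rests on that.

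Complement is a cascade of plasma proteases and pore-forming proteins that marks and lyses microbes. It is started through antibody, through lectins that bind microbial sugars, or by slow turnover of C3, and all routes meet at C3 and end in the membrane attack complex. Coagulation is a parallel cascade of serine proteases that ends in thrombin, which turns fibrinogen into fibrin, and plasmin later dissolves that fibrin. Hepatocytes make most of the circulating proteins of both cascades, and plasma clotting factors are used as a clinical measure of liver synthetic function.

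The tissue and its libraries were checked first. Each library held 13372367 to 14933853 reads in genes, and values are normalized read counts. Alb, which encodes albumin, took 2.89% to 12.11% of the reads, and all 20 hepatocyte markers were in the table. Vehicle replicate 3 stood apart: the share of reads from members was 2.18% there, 4.89% and 5.35% in the other vehicle livers, and 4.31% to 6.01% in the ginkgetin livers. Hepatocyte markers were low in the same library, at a summed 542271 normalized reads against 2047770 to 3382601 in the other 5. Differences that this library moved by over 1.5 times are given with and without it, or their group median is. In whole liver RNA, fewer hepatocytes and less RNA per hepatocyte cannot be told apart.

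Most complement and coagulation genes had a higher mean in the ginkgetin livers, but no member passed the test. Of the 39, 37 were higher and 2, Cfd and Kng1, were lower, where 48.6% of all 14639 genes tested were higher and 51.4% lower. The median difference was 0.99 on the scale of log2(normalized reads + 1), ginkgetin minus vehicle, which is used for every difference below. It was -0.02 over all genes tested. Without vehicle replicate 3 the median of the members was 0.36, and 37 were higher, where 49.0% of all genes were. These were not the same 37: Cfd turned to 0.34, and F7, at 0.00, fell just to the lower side.

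In limma, a linear model with moderated variances, 0 members passed a Benjamini-Hochberg adjusted p of 0.05 over all genes, where 0.0137% of all genes passed in either direction and 0.00683% as higher. Their adjusted p ran from 0.125 for Masp1 to 0.82 for Kng1. At an unadjusted p of 0.05, 6 members were higher and 0 lower, where 7.0% of all genes were higher and 13.2% lower. These 6 were Masp1, C6, Mbl2, F11, F13b and F9. Their number rested on single libraries. Leaving out vehicle replicate 1 made it 19, where 11.7% of all genes were then higher at that p. Leaving out vehicle replicate 3 made it 4, with 5.68% of all genes. Leaving out vehicle replicate 2 or ginkgetin replicate 1, 2 or 3 made it 2, with 4.91%, 6.09%, 3.85% and 3.29% of all genes. In edgeR, run on recovered reads, 0 members passed, and 0 of all 14639 genes did. Counts of 0 by edgeR below therefore say nothing particular about a list. At an unadjusted p of 0.05 edgeR had 2 members, where 2915 of all 14639 genes were under it. DESeq2 called 2 members higher, Masp1 and C6, where 1.93% of all genes were called higher by it and 7.69% lower.

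The 3 ginkgetin values lay above all 3 vehicle values in 12 of the 39 members (30.8%), where 11.4% of all genes did so, and below them in 0. The 12 were 5 complement genes (Mbl2, Masp1, Cfb, C6, C8a) and 7 of coagulation and fibrinolysis (F11, F12, Klkb1, F10, Fgb, Serpinc1, Serpinf2). Most members are made by hepatocytes and varied together across the libraries, so these 12 are not independent of each other.

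**Figure D1:**
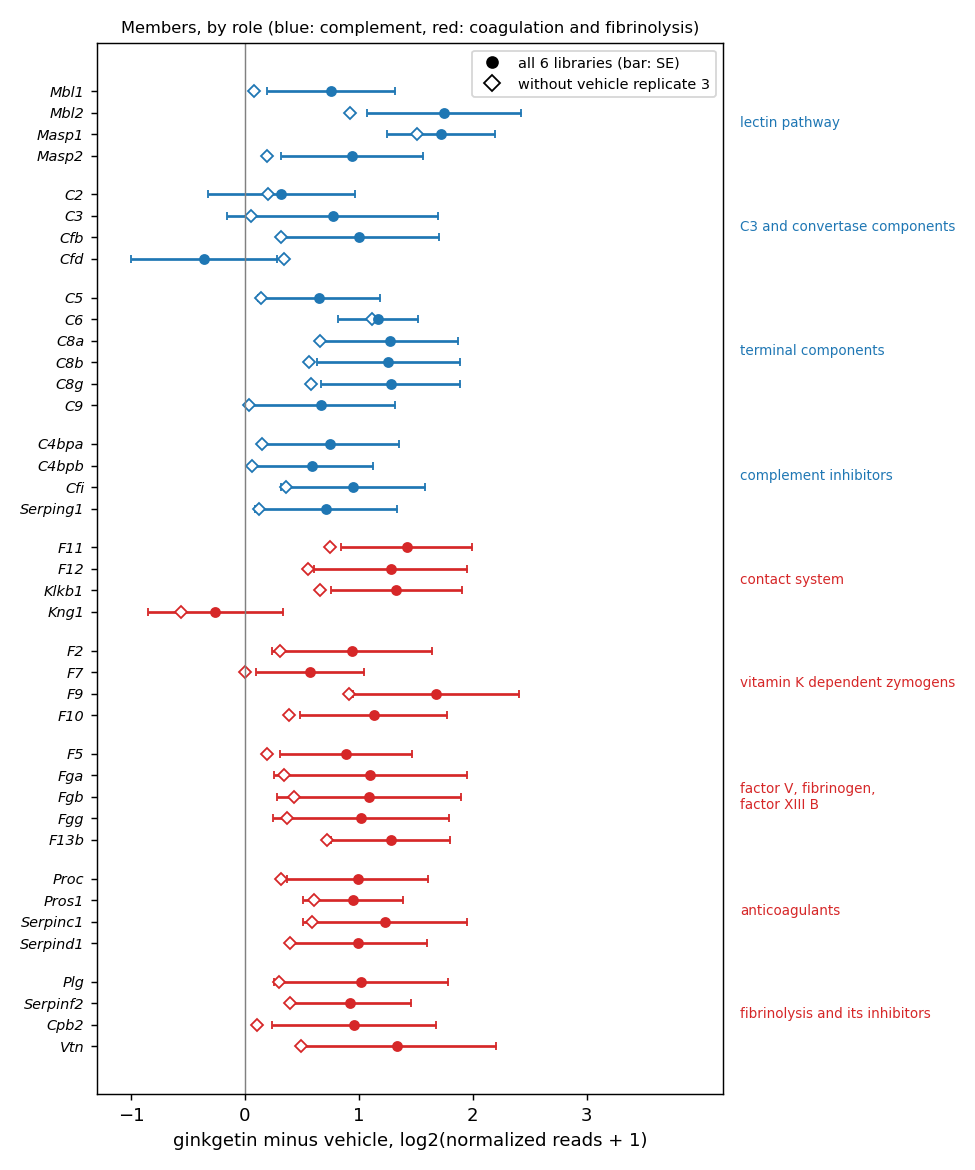
Difference between ginkgetin and vehicle for each of the 39 members, in log2(normalized reads + 1), grouped by role; filled points with bars are the estimate and its SE over all 6 libraries, and open diamonds the estimate without vehicle replicate 3. Most filled points lie near 1, most diamonds lie nearer 0, and C6 stays nearly in place (1.17 and 1.12).

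Complement and coagulation genes were then set against each other. The median difference was 0.86 for the 18 complement genes (17 higher) and 1.02 for the 21 coagulation and fibrinolysis genes (20 higher), so that complement lay 0.16 below coagulation. The medians were 0.26 and 0.40 when vehicle replicate 3 was left out. With vehicle replicate 1 left out, the vehicle library closest to the ginkgetin livers in these genes, they were 1.30 and 1.48. When all libraries were scaled to equal totals they were 0.34 and 0.50, with the median of all genes at -0.53, and with quantile scaling 0.40 and 0.48, with all genes at 0.07.

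The same comparison was made library by library, with each gene centred on its mean over the 6 libraries. Complement genes lay on average at 0.29, -0.21 and -1.43 in vehicle replicates 1 to 3, and at 0.25, 0.58 and 0.52 in ginkgetin replicates 1 to 3. Coagulation and fibrinolysis genes lay at 0.32, -0.07 and -1.82 with vehicle, and at 0.24, 0.70 and 0.63 with ginkgetin. In both sets vehicle replicate 1 was above ginkgetin replicate 1, so the groups overlapped. Complement minus coagulation was -0.04, -0.14 and 0.39 in the vehicle livers and 0.01, -0.11 and -0.11 in the ginkgetin livers. The groups overlapped here too, and 1 library, vehicle replicate 3, had coagulation genes lower than complement genes by more than the others.

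Hepatocyte markers, none of which is a member, were also lowest in vehicle replicate 3. Their mean level was 0.47, -0.03 and -2.05 in the vehicle livers and 0.30, 0.53 and 0.77 in the ginkgetin livers, and all 20 had a higher mean with ginkgetin (median 1.12). Without vehicle replicate 3, 14 of the 20 were higher (median 0.31). The members minus these markers lay at 0.05 ± 0.32 (SD, n = 3) in the vehicle livers and -0.04 ± 0.16 (SD, n = 3) in the ginkgetin livers, so relative to other hepatocyte RNA the groups differed by less than their spread. After each library was centred on these markers, the members' median difference was -0.07, with 16 higher and 23 lower. The median over all genes moved to -1.09 under that centring, where 92.2% of all genes were lower.

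**Figure D2:**
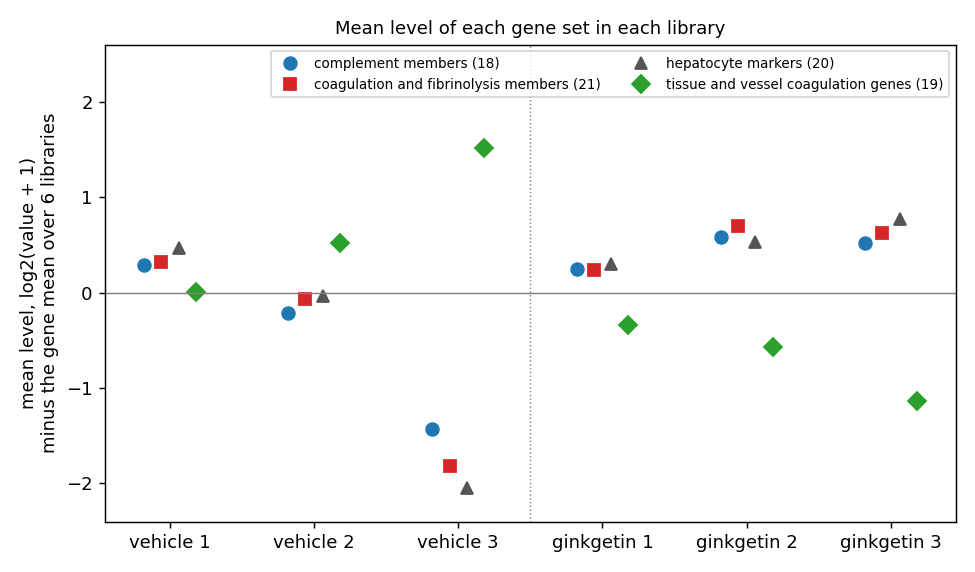
Mean level of 4 gene sets in each library, in log2(normalized reads + 1) after each gene is centred on its mean over the 6 libraries. Complement, coagulation and hepatocyte points lie together in each library and are lowest in vehicle replicate 3, where the tissue and vessel coagulation genes are highest, at 1.52.

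The lectin pathway, in which mannose-binding lectins carry the proteases Masp1 and Masp2 to microbial sugars, held the complement members with the highest differences. Masp1, which encodes the protease that starts this pathway, had normalized read counts of 314, 229 and 174 in vehicle replicates 1 to 3 against 419, 1606 and 667 in ginkgetin replicates 1 to 3. All ginkgetin values were above all vehicle values, and ginkgetin replicate 2 was far above the other libraries. The difference was 1.72 (SE 0.473, limma adjusted p = 0.125), 1.51 without vehicle replicate 3 and 1.18 without ginkgetin replicate 2. DESeq2 gave 1.91 with an adjusted p of 0.00949, and the adjusted p over all alternatives ran from 0.00949 to 0.602. The table does not separate the proteins that this gene makes by splicing.

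Mbl2 and Mbl1 encode the C and A forms of mannose-binding lectin in rodents. Mbl2 had normalized read counts of 166, 79.8 and 19.6 under vehicle against 227, 196 and 236 under ginkgetin, a difference of 1.75 (SE 0.674, limma adjusted p = 0.206). The ginkgetin livers were close to each other and the vehicle livers were not. The difference was 0.92 without vehicle replicate 3. Mbl1, with 3507, 2309 and 696 reads against 2913, 2747 and 3403, overlapped between the groups. Its difference was 0.76, and 0.08 without vehicle replicate 3. The log2 ratio of Mbl1 to Mbl2 was accordingly 4.39, 4.84 and 5.08 in the vehicle livers and 3.68, 3.81 and 3.84 in the ginkgetin livers, with no overlap. Ratios were computed for several gene pairs, and only this one and that of Kng1 to Klkb1 had no overlap. Mbl2 rested on 32 recovered reads in vehicle replicate 3. Masp2, the protease that cleaves C4 and C2, had 4823, 3288 and 823 reads against 4232, 4207 and 5214, with vehicle replicate 1 inside the ginkgetin range. Its difference was 0.94, and 0.19 with vehicle replicate 3 left out.

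Upstream sequence is shown for Masp1 and C6, the members with the smallest p, and for the 3 fibrinogen chain genes, whose reads varied together. RefSeq promoters (build GRCr8) were found for 31 of the 39 members, 32 promoters in all. Fga has 2 of them, both with C/EBP and HNF4 matches, and counts 2 times in the shares below. The 250 bases before the start were searched on both strands for 3 short motifs linked to liver genes. These were TTGCNNAA for C/EBP, CTGGGAA for the IL-6 response element and CAAAGNNCA for HNF4. They were held by 37.5%, 28.1% and 12.5% of the members' promoters, against 9.2%, 9.6% and 5.2% of all 33469 promoters. Complement and coagulation promoters held TTGCNNAA in 41.7% and 35.0%, CTGGGAA in 16.7% and 35.0%, and CAAAGNNCA in 0 of 12 and 4 of 20. A match is only a description of the letters. Capitals mark matches to any of the 3 motifs, and the 250 bases of Masp1 hold none:
Masp1, chr11:90839472-90839721, plus strand: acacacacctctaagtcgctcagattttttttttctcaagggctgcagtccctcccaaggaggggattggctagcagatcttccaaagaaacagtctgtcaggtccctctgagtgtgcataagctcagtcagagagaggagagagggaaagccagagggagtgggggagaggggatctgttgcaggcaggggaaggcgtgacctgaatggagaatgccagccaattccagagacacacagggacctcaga
C6, chr2:55573383-55573632, plus strand: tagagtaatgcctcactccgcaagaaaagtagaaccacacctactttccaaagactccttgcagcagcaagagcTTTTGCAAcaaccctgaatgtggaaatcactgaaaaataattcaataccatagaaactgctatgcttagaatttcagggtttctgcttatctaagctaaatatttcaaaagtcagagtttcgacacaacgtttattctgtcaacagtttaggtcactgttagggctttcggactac

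C3 and the proteins of its convertases form the centre of the cascade. Here 1 of 4, Cfb, lay higher without overlap between the groups, where 11.4% of all genes did. C3, the protein on which all routes meet, had normalized read counts of 163857, 129901 and 32767 under vehicle against 130117, 171939 and 155390 under ginkgetin. Vehicle replicates 1 and 2 lay at or near the ginkgetin range, and the difference of 0.77 (SE 0.924, limma adjusted p = 0.655) was 0.05 without vehicle replicate 3. Cfb, factor B of the alternative pathway convertase, had 30023, 20264 and 6034 reads against 30752, 31184 and 30544. Its ginkgetin livers were nearly equal and just above vehicle replicate 1 (difference 1.0, SE 0.702, adjusted p = 0.44, limma). The difference was 0.32 with vehicle replicate 3 left out. C2, the protease of the classical and lectin convertase, had 84.2, 147 and 87.8 reads against 45.3, 314 and 147. The ginkgetin livers spanned the vehicle livers, and its difference of 0.32 became 0.20 without vehicle replicate 3 and turned to -0.33 without ginkgetin replicate 2.

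Cfd encodes factor D, or adipsin, which cleaves factor B and in rodents is made chiefly by fat cells. It was 1 of the 2 members with a lower mean in the ginkgetin livers. It had normalized read counts of 486, 222 and 1392 under vehicle against 718, 268 and 371 under ginkgetin. Vehicle replicate 3, the library with the fewest reads of most members, had the most of Cfd. The difference was -0.36 (SE 0.64, limma adjusted p = 0.775) and 0.34 without that library. The fat cell markers Lep and Plin1 had no row under those symbols. Adipoq, which defines fat cells, was at or near 0: it had counts of 0.0, 0.832 and 0.614 under vehicle and at most 2.31 under ginkgetin. Cidec summed with it to 163 reads in vehicle replicate 3 and 570 to 1402 in the other libraries.

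The terminal components, C5 to C9, assemble the membrane attack complex. C6, the second protein to join it, had normalized read counts of 2345, 1124 and 1466 under vehicle against 3981, 3315 and 3319 under ginkgetin. Its ginkgetin livers all lay above its vehicle livers, and vehicle replicate 3 was not the lowest. The difference of 1.17 (SE 0.351, limma adjusted p = 0.142) was 1.12 without vehicle replicate 3. It was 1.46 without vehicle replicate 1 (adjusted p = 0.0484), where 1.71% of all genes were called higher. DESeq2 gave 1.11 with an adjusted p of 0.0265. Over all alternatives the adjusted p ran from 0.0265 to 0.918, the last after centring on hepatocyte markers, where the difference was 0.10.

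C8a, C8b and C8g encode the 3 chains of C8. C8a had normalized read counts of 8532, 5557 and 1933 under vehicle against 8808, 13915 and 10588 under ginkgetin, with vehicle replicate 1 just below the ginkgetin range (difference 1.27, SE 0.597, limma adjusted p = 0.271). C8b and C8g differed by 1.26 and 1.28 and overlapped between the groups. With vehicle replicate 3 left out the 3 chains stood at 0.66 (C8a), 0.56 (C8b) and 0.58 (C8g). C9, which forms the pore, had the most reads of the terminal components, at 16450, 16446 and 4384 against 12448, 20593 and 18720. Its lowest ginkgetin liver was below vehicle replicates 1 and 2, and the difference of 0.67 was 0.04 without vehicle replicate 3. C5, which starts the assembly, differed by 0.65, and by 0.14 without that library.

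Inhibitors of complement had no member without overlap, where 11.4% of all genes lay higher and 16.1% lower without it. Cfi, the protease that inactivates C3b and C4b, had normalized read counts of 20022, 15095 and 5128 under vehicle against 19713, 23046 and 24680 under ginkgetin (difference 0.95, SE 0.631, limma adjusted p = 0.416). Vehicle replicate 1 lay within the ginkgetin range. C4bpa and C4bpb, the chains of C4-binding protein, differed by 0.75 and 0.59. Serping1, the C1 inhibitor, which also restrains the contact system, differed by 0.71. Without vehicle replicate 3 the 4 inhibitors had a median of 0.13, against 0.73 with it.

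The contact system starts clotting and bradykinin release on charged surfaces. In 3 of its 4 genes the ginkgetin values lay above all vehicle values, where 11.4% of all genes did so. F11, coagulation factor XI, had normalized read counts of 3392, 1842 and 619 under vehicle against 4429, 3838 and 4328 under ginkgetin (difference 1.42, SE 0.575, limma adjusted p = 0.224, with 0.75 when vehicle replicate 3 was left out). F12, factor XII, had 14264, 9728 and 2600 against 15793, 18151 and 17862. Klkb1, plasma prekallikrein, had 3355, 2253 and 687 against 3595, 5825 and 3915. In all 3, vehicle replicate 1 came closest to the ginkgetin livers. Klkb1 and F11 are next to each other in the RefSeq order of coding genes (assembly GRCr8), and differed by 1.33 and 1.42. F12 differed by 1.28. With vehicle replicate 3 left out Klkb1 stood at 0.66 and F12 at 0.55.

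Kng1, which encodes a kininogen, the precursor of bradykinin, had a lower mean with ginkgetin, unlike its partners. It had normalized read counts of 26432, 44910 and 18570 under vehicle against 20578, 24051 and 25754 under ginkgetin. Vehicle replicate 2 was the highest of the 6 libraries, and the ginkgetin livers lay inside the vehicle range. The difference was -0.26 (SE 0.591, limma adjusted p = 0.82). Leaving out vehicle replicate 3 made it -0.56, and leaving out vehicle replicate 2 made it 0.08. The log2 ratio of Kng1 to Klkb1 was 2.98, 4.32 and 4.75 in the vehicle livers and 2.52, 2.05 and 2.72 in the ginkgetin livers, without overlap. Most of the other gene pairs whose ratios were computed did overlap. After centring on hepatocyte markers Kng1 was the only member called in limma, at -1.33 (SE 0.418, adjusted p = 0.0398), where 4.21% of all genes were called lower and the median of all genes was -1.09. RefSeq lists Kng1 also as an older name of related rat kininogen genes, among them those of T-kininogen, an acute phase protein of rats. Which of them this row counts, and whether it shares their reads, is not settled by the table.

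**Figure D3:**
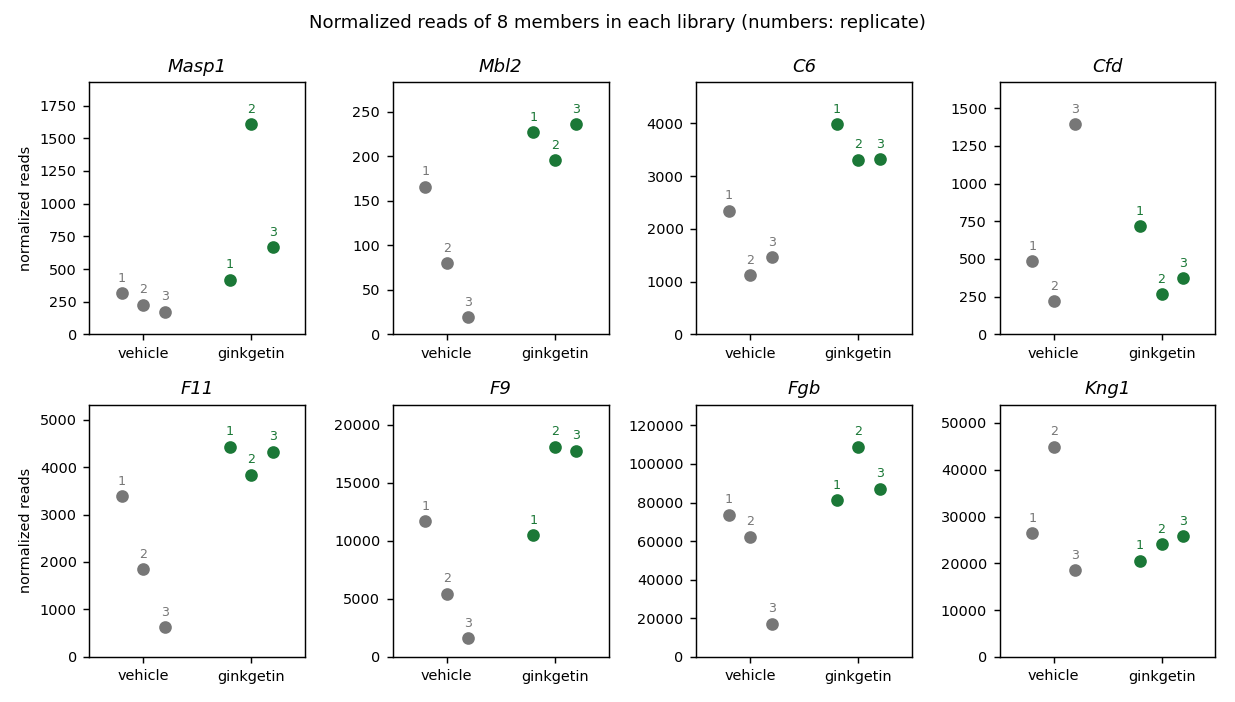
Normalized reads of 8 members in each of the 6 libraries (vertical axes start at 0; numbers are replicates). The groups do not overlap for Masp1, Mbl2, C6, F11 and Fgb, and overlap for Cfd, F9 and Kng1; vehicle replicate 3 is the lowest library for Masp1, Mbl2, F11, F9, Fgb and Kng1 and the highest for Cfd.

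The vitamin K dependent zymogens are clotting proteases that need a carboxylated domain to bind membranes. F9, factor IX, which is absent in haemophilia B, had normalized read counts of 11694, 5430 and 1590 under vehicle against 10467, 18086 and 17742 under ginkgetin. It had the highest difference of the coagulation genes, at 1.68 (SE 0.729, limma adjusted p = 0.246), although vehicle replicate 1 was above ginkgetin replicate 1. F2, prothrombin, had 31056, 27068 and 7793 against 28407, 42386 and 38699 (difference 0.94, SE 0.701). F10, factor X, had 8711, 5746 and 1517 against 9111, 8896 and 9823, with a narrow gap between the groups (1.13, SE 0.645). F7, factor VII, with 1246, 1718 and 439 against 1329, 1451 and 1608, had its highest value in a vehicle liver. Its difference of 0.57 went to 0.00 without vehicle replicate 3. F9, F2 and F10 stood at 0.91, 0.31 and 0.39 with that library left out. F10 and F7 are neighbours in the same assembly, with differences of 1.13 and 0.57.

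Fibrinogen is a hexamer of paired alpha, beta and gamma chains, whose genes lie side by side. Fga had normalized read counts of 65966, 64683 and 13607 under vehicle against 63036, 111421 and 81279 under ginkgetin. Fgb had 73754, 62380 and 17261 against 81200, 108893 and 87202. Fgg had 45866, 46592 and 12020 against 44304, 81122 and 59315. In each, vehicle replicate 3 was lowest and ginkgetin replicate 2 highest, and Fgb alone of the 3 had no overlap. Their differences were 1.10, 1.09 and 1.02, with SE of 0.848, 0.811 and 0.769 and limma adjusted p of 0.461 to 0.477. Without vehicle replicate 3 they were 0.34, 0.43 and 0.37. The chains kept close to each other: the log2 ratio of Fga to Fgb averaged -0.15 ± 0.20 (SD, n = 3) in the vehicle livers and -0.14 ± 0.20 (SD, n = 3) in the ginkgetin livers. For Fgg to Fgb it was -0.54 ± 0.13 and -0.62 ± 0.23. Both differences between the groups were below the spread.

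The 250 bases before the start of the fibrinogen genes are shown with the same capitals. Fga has 2 starts in the table, of which the first is printed. Fga and Fgb each hold a C/EBP match, Fga holds 2 HNF4 matches, Fgb holds CTGGGAA once, and Fgg holds it 2 times:
Fga, chr2:170671919-170672168, plus strand: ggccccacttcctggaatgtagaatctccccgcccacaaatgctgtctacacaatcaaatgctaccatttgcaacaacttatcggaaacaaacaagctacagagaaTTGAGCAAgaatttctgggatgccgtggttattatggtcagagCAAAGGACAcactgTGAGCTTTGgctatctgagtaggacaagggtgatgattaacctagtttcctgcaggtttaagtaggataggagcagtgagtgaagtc
Fgb, chr2:170700876-170701125, minus strand: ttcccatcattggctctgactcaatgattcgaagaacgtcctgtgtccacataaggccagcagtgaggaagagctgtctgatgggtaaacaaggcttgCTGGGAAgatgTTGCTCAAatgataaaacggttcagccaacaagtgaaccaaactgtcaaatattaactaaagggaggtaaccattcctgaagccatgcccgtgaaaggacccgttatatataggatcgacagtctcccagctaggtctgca
Fgg, chr2:170652833-170653082, plus strand: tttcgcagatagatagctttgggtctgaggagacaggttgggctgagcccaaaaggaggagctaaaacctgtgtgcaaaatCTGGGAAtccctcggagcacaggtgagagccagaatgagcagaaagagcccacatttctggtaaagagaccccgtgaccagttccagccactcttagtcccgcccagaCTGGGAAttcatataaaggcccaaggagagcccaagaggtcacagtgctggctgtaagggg

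The other clot-forming members are F5, the cofactor of factor X, and F13b, the carrier chain of the enzyme that crosslinks fibrin. F13b had normalized read counts of 3396, 2039 and 818 under vehicle against 3331, 4715 and 5197 under ginkgetin, so vehicle replicate 1 was just above the lowest ginkgetin liver (difference 1.28, SE 0.525, limma adjusted p = 0.228). F5 ranged from 370 to 1645 reads with vehicle and from 1169 to 2358 with ginkgetin, a difference of 0.89. These became 0.72 for F13b and 0.19 for F5 with vehicle replicate 3 left out.

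The 4 anticoagulants differed by 0.95 to 1.23. Serpinc1, which encodes antithrombin, had normalized read counts of 35997, 22334 and 7363 under vehicle against 40578, 40366 and 47073 under ginkgetin (difference 1.23, SE 0.718, limma adjusted p = 0.358), which became 0.59 with vehicle replicate 3 left out. Its groups did not overlap. Pros1, protein S, the cofactor of activated protein C, had 3705, 1830 and 1291 against 3176, 4877 and 4055 (0.95, SE 0.442), with vehicle replicate 1 inside the ginkgetin range. Proc, protein C, and Serpind1, heparin cofactor II, both differed by 0.99. With vehicle replicate 3 left out Pros1, Proc and Serpind1 stood at 0.61, 0.32 and 0.40. The log2 ratio of Fgb to Serpinc1, a clot protein to a clot inhibitor, averaged 1.25 ± 0.22 (SD, n = 3) in the vehicle livers and 1.11 ± 0.29 (SD, n = 3) in the ginkgetin livers, which overlapped.

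Fibrinolysis genes included the plasmin precursor and its restraints. Serpinf2, alpha-2-antiplasmin, had normalized read counts of 7553, 7728 and 2615 under vehicle against 8136, 10649 and 11947 under ginkgetin, without overlap (difference 0.92, SE 0.535, limma adjusted p = 0.358). Vtn, vitronectin, which binds the plasminogen activator inhibitor and also blocks the membrane attack complex, had 62641, 34908 and 7930 against 55366, 70269 and 72547 (1.34, SE 0.864). Plg, plasminogen, and Cpb2, a carboxypeptidase that slows fibrinolysis, differed by 1.02 and 0.96. For Vtn, Plg and Cpb2 vehicle replicate 1 was above ginkgetin replicate 1. Leaving out vehicle replicate 3 made the differences 0.40 for Serpinf2, 0.49 for Vtn, 0.30 for Plg and 0.11 for Cpb2. Placing Vtn with coagulation and Serping1 and Cfd with complement was a choice, and without these 3 genes complement lay 0.07 below coagulation.

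The other genes of both cascades were split by where they are made. Of other liver-made coagulation proteins, 6 of 7 tested were higher, at a median of 1.17, and 0.33 without vehicle replicate 3. Among them were Proz, protein Z (1.26), Habp2, a factor VII activating protease (0.95), and Apoh, beta-2-glycoprotein I (1.46). These became 0.53, 0.33 and 0.77 with that library left out. The enzymes of the vitamin K cycle and pro-protein cleavage had all 4 tested above 0, at a median of 0.51, and 0.41 without vehicle replicate 3. Vkorc1, the vitamin K epoxide reductase, differed by 0.74, Furin by 0.72 and Ggcx, the carboxylase, by 0.23, which became 0.49, 0.47 and 0.10 with that library left out. In limma, edgeR and DESeq2 0 genes of these lists passed, with 0 at an unadjusted p of 0.05 in limma and a smallest limma adjusted p of 0.266.

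Clotting and fibrinolysis genes of vessel wall and tissue lay on the other side. A lower mean with ginkgetin was seen for 18 of 19 tested, where 51.4% of all genes were lower. The list median was -1.47, or -1.07 with vehicle replicate 3 left out. The 3 ginkgetin values lay below all vehicle values in 10 of the 19, where 16.1% of all genes did so. In limma 0 passed, and 10 were lower at an unadjusted p of 0.05, where 13.2% of all genes were. The other tools differed: 0 passed in edgeR and 9 were called lower in DESeq2, where 7.69% of all genes were. Without vehicle replicate 3, where 67 of all 14639 genes passed in limma as lower, 1 of this list did. It was Serpine2, a thrombin and plasminogen activator inhibitor, at -1.17 with an adjusted p of 0.0449, named after its values were seen. Vwf, von Willebrand factor of endothelium and platelets, had normalized read counts of 800, 1130 and 1387 under vehicle against 515, 282 and 114 under ginkgetin (-2.08, SE 0.507, limma adjusted p = 0.108). Tfpi, the tissue factor pathway inhibitor, had 263, 320 and 436 against 190, 138 and 129 (-1.14, SE 0.283). F2r, the thrombin receptor, had 186, 190 and 428 against 87.3, 102 and 79.2 (-1.47, SE 0.372). None of the 3 overlapped between groups, and without vehicle replicate 3 they stood at -1.89, -0.95 and -1.07.

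Markers of other liver cells also differed between the groups. Stellate and myofibroblast markers were lower in 7 of 8 (median -2.32, and -1.27 without vehicle replicate 3). They summed to 11311, 13281 and 122042 normalized reads in vehicle replicates 1 to 3 and 3267 to 6278 in the ginkgetin livers. Cholangiocyte markers were lower in 8 of 8 tested (median -3.33, and -3.06 without that library), at 2049, 2444 and 21057 against 319 to 784. Endothelial markers were higher in 5 of 7 (median 0.20, and 0.32 without vehicle replicate 3). Their sums overlapped, at 3064 to 4438 with vehicle and 3699 to 4907 with ginkgetin. Platelet markers were higher in 3 of 5 and lower in 2 (median 0.13, and 0.12 without vehicle replicate 3). They summed to 259, 294 and 1339 in vehicle replicates 1 to 3 and 238 to 475 in the ginkgetin livers. Pf4 alone held 1051 of the 1339. Vehicle replicate 3 alone made the highest sums of the stellate, cholangiocyte and platelet lists. The part of these cell types in the result was not tested.

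Complement genes outside the members lay on both sides of 0. Of 16 other components 7 were higher and 9 lower (median -0.03). With vehicle replicate 3 left out 11 were higher (median 0.09). Over all libraries, 0 passed in limma. At an unadjusted p of 0.05 in limma 2 were higher and 2 lower, where 7.0% and 13.2% of all genes were. In edgeR 0 passed, and DESeq2 called 1 higher and 2 lower, where it called 1.93% and 7.69% of all genes. Colec10, a soluble collectin of the lectin pathway, had normalized read counts of 249, 128 and 273 under vehicle against 594, 766 and 416 under ginkgetin (1.48, SE 0.354, limma adjusted p = 0.106). Colec12, a membrane collectin, had 149, 234 and 748 against 92.9, 45.1 and 37.1 (-2.44, SE 0.612). Neither overlapped, and their DESeq2 adjusted p were 0.0109 and 0.0023. C7, a terminal component made largely by cells other than hepatocytes, had 248, 556 and 3201 against 398, 178 and 63.1. Its groups overlapped, and its difference was -2.20, or -1.17 without vehicle replicate 3 (DESeq2 adjusted p = 0.042 over all libraries).

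Among 12 complement receptors and membrane regulators, 5 were higher and 7 lower (median -0.19, and -0.10 without vehicle replicate 3). In limma 0 passed. At an unadjusted p of 0.05 in limma 1 was higher and 3 lower, where 7.0% and 13.2% of all genes were. In edgeR 0 passed, and DESeq2 called 2 lower, C5ar1 and Itgax, where it called 7.69% of all genes lower. C5ar1, the receptor for C5a on myeloid cells, had normalized read counts of 158, 111 and 827 under vehicle against 84.0, 49.8 and 59.4 under ginkgetin (-1.94, and -1.06 without vehicle replicate 3). Itgax, the alpha chain of complement receptor 4, had 102, 134 and 536 against 58.6, 53.2 and 48.2 (-1.85, and -1.12 with that library left out). Cd55, decay-accelerating factor, had 28.5, 20.8 and 18.4 against 11.1, 2.31 and 6.19 (-1.81). All 3 had groups without overlap. Macrophage and Kupffer cell markers, given beside them, were lower in 5 of 10 (median -0.26, and 0.39 without vehicle replicate 3). These summed to 6356, 3399 and 26499 in vehicle replicates 1 to 3 and 4432 to 8477 with ginkgetin. Neutrophil markers were lower in 6 of 6 (median -2.52, and -2.07 without vehicle replicate 3). In limma 5 were lower at an unadjusted p of 0.05, against the same 13.2% of all genes, and 0 passed the adjusted p. In edgeR 0 passed, and DESeq2 called 2 lower, against the same 7.69% of all genes. Neutrophil markers summed to 395, 357 and 1290 in vehicle replicates 1 to 3 and 50 to 249 with ginkgetin, and Elane was at 0 in all ginkgetin livers. The part of either list was not tested.

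**Figure D4:**
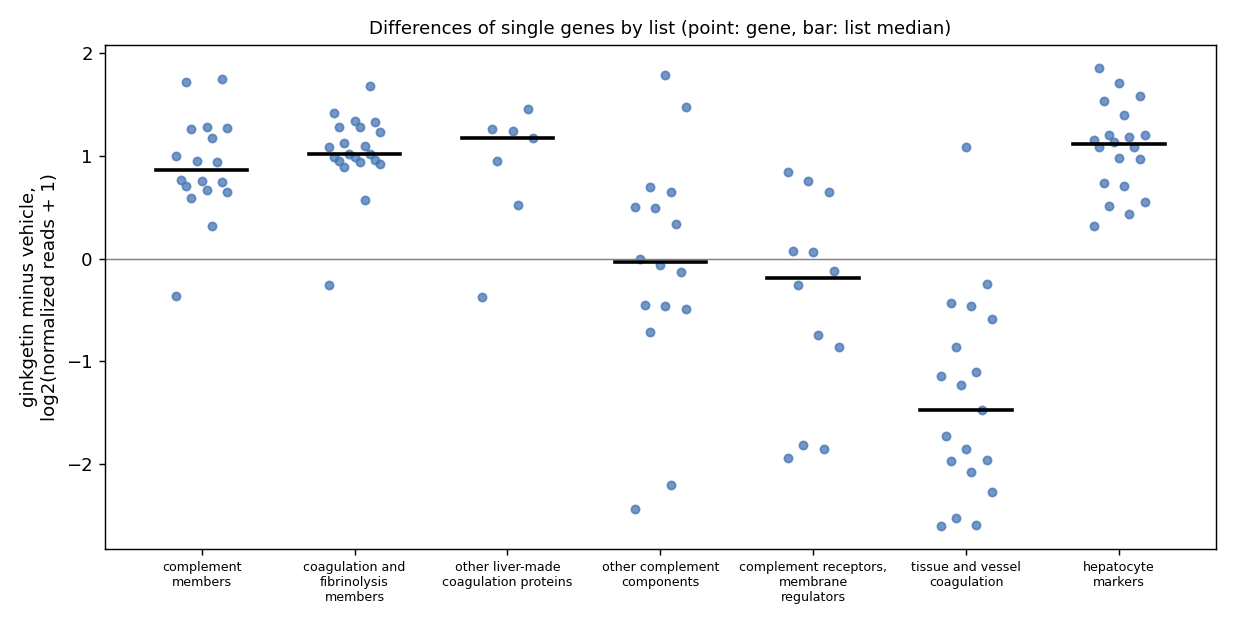
Difference between ginkgetin and vehicle in log2(normalized reads + 1) for each gene of 7 lists (points) with the list median (bars). The medians of the members are 0.86 and 1.02, close to the 1.12 of hepatocyte markers, and the median of tissue and vessel coagulation genes is -1.47.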

How the data were processed

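RNA of 6 rat liver samples was sequenced from SMARTER mRNA libraries, per the labels' protocols. The submitters' processing notes name genome build mRatBN7.2. The sources used here name no aligner, counter, annotation or strand setting. What the authors deposited is one signal per gene and library: a read count after normalization by size factors, as far as the values show. In each library 99.67% of values were whole multiples, within 0.02, of the value of 1 read, so whole reads were recovered. Rows named as dates (23 of 16209) were kept but are not named.

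Groups were compared by limma 3.58.1 (trend, robust; R 4.3.3) on log2(value + 1). The 14639 genes that reached a value of 1 in at least 3 libraries were tested, with Benjamini-Hochberg adjustment. edgeR 4.0.16 (quasi-likelihood) and DESeq2 1.42.0 were run on the recovered reads. The procedure was also run on simulated reads with the same dispersion for all genes and both groups. Complement levels here had an SD of 0.88 with vehicle and 0.18 with ginkgetin. That run does not bear on such unequal spread. The labels do not say that replicates are separate animals, so p-values reflect only how these samples vary, which may be technical. Libraries were not duplicates (chi-square per degree of freedom at least 49.9). The members and lists were chosen with earlier results of these data known, so no test over a list is given. Every member could be named. Values of all 6 libraries are given for the member with the most reads and the smallest p of each role, members without overlap and members against the direction of their set. Of other lists the 3 genes with the smallest p are named, except items that are not reported here. Promoter sequences are from RefSeq (GRCr8), which is not the build of the table, and the first 250 bases were used.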

Additional observations from a re-analysis of the deposited data

How the results depend on the processing

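Libraries held at least 13372367 reads, and complement levels had an SD of 0.88 among the vehicle livers against 0.18 among the ginkgetin livers, with vehicle replicate 3 lowest. The count of genes past an adjusted p of 0.05 in the whole table was 2, and became 5 with a pseudocount of 5, 1 with quantile scaling, 94 with equal library totals, 27 in limma without trend or robust moderation, 0 in edgeR, 1375 in DESeq2 and 635 after centring on hepatocyte markers. With 1 library left out it ran from 0 to 696. The count of members past it was 0, and became 1 after that centring and 2 in DESeq2, and ran from 0 to 1 with 1 library left out. Equal library totals moved the median of all genes from -0.02 to -0.53, and the members' medians to 0.34 (complement) and 0.50 (coagulation). Higher and lower genes at an unadjusted p of 0.05 split as 1025 and 1938 as reported, 349 and 2934 with equal library totals, 1117 and 1397 with quantile scaling and 55 and 2719 after the centring.

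Centring on hepatocyte markers turned the medians of complement and coagulation to -0.21 and -0.05 and left 16 members higher. The genes it turned below 0 were Mbl1 (-0.31), Masp2 (-0.12), C2 (-0.75), C3 (-0.29), Cfb (-0.07), C5 (-0.42), C9 (-0.39), C4bpa (-0.32), C4bpb (-0.48), Cfi (-0.12), Serping1 (-0.36), F2 (-0.12), F7 (-0.49), F5 (-0.18), Fgg (-0.05), Proc (-0.07), Pros1 (-0.12), Serpind1 (-0.08), Plg (-0.05), Serpinf2 (-0.15), Cpb2 (-0.11), Habp2 (-0.12), Vkorc1 (-0.32), Furin (-0.35), Ggcx (-0.84), Cebpa (-0.11). Elsewhere, C2 turned to -0.20 with equal library totals, and Ggcx to -0.29 with equal library totals and 0.00 with quantile scaling. With 1 library left out, C2 ran from -0.33 to 1.06, Cfd from -0.99 to 0.34, F7 from 0.00 to 0.98 and Kng1 from -0.56 to 0.08. The cause was not tested. Of 1020 values of 60 named genes under these alternatives, 963 kept their direction and their side of the threshold. The replicate block and the variance model cannot change a direction, and pseudocounts and filters hardly can. Each of these left all 60 genes the same, so the total says little about stability. Centring on hepatocyte markers left 27 of 60 the same, with 26 reversed and 7 newly past the threshold. Complement lay below coagulation in every alternative run, by 0.01 to 0.33. Scaling or centring whole libraries, the block and the variance model can hardly change this gap, so those runs do not bear on it. Over all libraries the difference of medians was -0.16. Complement minus coagulation had a pooled SD of 0.21 within the groups, which is larger, and the groups overlapped.

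No pairing by replicate number was seen: deviations from the group means correlated at -0.16, 0.03 and -0.21 for numbers 1 to 3. Such deviations sum to 0 within each group of 3, so these values cannot exclude a pairing. With the replicate block 0 genes and 0 members passed. Not every sample correlated best with its own number.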

Other observations

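Acute phase proteins outside the members, which the liver releases during inflammation, did not share a direction. Of 11 tested, 8 had higher and 3 lower means with ginkgetin, at a median of 0.74, and 0.03 without vehicle replicate 3. Hamp, which encodes hepcidin, the iron hormone, had normalized read counts of 1777, 2030 and 1045 under vehicle against 17395, 15694 and 6767 under ginkgetin (2.98, SE 0.489, limma adjusted p = 0.0688). It passed without vehicle replicate 3, at 2.69 with a limma adjusted p of 0.0368, where 17 of all 14639 genes passed as higher. Apcs, serum amyloid P, had normalized read counts of 11607, 5823 and 1835 under vehicle against 16840, 12351 and 16078 under ginkgetin (1.58, SE 0.68, limma adjusted p = 0.243), which became 0.86 with vehicle replicate 3 left out. Lbp, which hands bacterial lipopolysaccharide to its receptor, had 4605, 10774 and 3549 against 1975, 2527 and 2303 (-1.31, SE 0.462, limma adjusted p = 0.18). Its highest value was in vehicle replicate 2, the library that was also highest for Kng1. The groups did not overlap for Hamp, Apcs or Lbp. In limma and edgeR 0 of the 11 passed, and DESeq2 called 1 higher and 2 lower, where it called 1.93% and 7.69% of all genes. At an unadjusted p of 0.05 in limma 2 were higher and 1 lower, where 7.0% and 13.2% of all genes were.

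Transcription factors of hepatocytes and IL-6 signalling genes were higher in 12 of 16 tested, at a median of 0.78, and 0.43 without vehicle replicate 3. In limma, edgeR and DESeq2 0 passed, with 2 higher at an unadjusted p of 0.05 in limma, where 7.0% of all genes were. Cebpa, a factor of liver-specific transcription, had normalized read counts of 3602, 2399 and 2121 under vehicle against 3340, 6864 and 5859 under ginkgetin (0.96, SE 0.412). Il6st, the shared signalling receptor of the IL-6 family, had 247, 274 and 160 against 292, 1110 and 388 (1.18, SE 0.482), with its highest value in ginkgetin replicate 2, as for Masp1.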
